A study of Mus musculus with 9 samples.

Results

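Hyaluronan synthesis, breakdown and binding was described through 9 genes, chosen by symbol from the 40213 symbols in the count files: the synthases Has1, Has2 and Has3, the degrading proteins Hyal1, Hyal2 and Cemip, the receptor Cd44, and the secreted binders Tnfaip6 and Vcan. All 9 had a row in every file, and 7 passed the filter on low counts, Has1 and Has3 being the exceptions. The cells were primary calvarial pre-osteoblasts from 3-day-old wild-type ICR pups, and every group was grown under normoxia in medium with 50 µg/ml L-ascorbic acid (L-AA) and 5 mM β-glycerophosphate (β-Gp) and taken at day 6. They had been infected with a control adenovirus (Ad-C), an adenovirus carrying Hif1a (Ad-Hif1a) or one carrying Hif2a (Ad-Hif2a, whose gene is Epas1 in the files), with 3 libraries per group. An adenovirus is not restricted to a single cell type, the share of infected cells and the species of the vector sequences are not given in the sources used here, and the controls carried virus too. The study's methods say that n counts independent experiments or mice, while the labels do not name the culture behind each library, and p-values measure the spread between these libraries.

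Hyaluronan is a long, unsulfated glycosaminoglycan made at the plasma membrane from UDP-glucuronic acid and UDP-N-acetylglucosamine and extruded into the matrix as it grows. Its amount and chain length are set by the synthases and by enzymes that cut it, and proteins with link domains tether it to cells, to proteoglycans and to each other. In bone it is a component of the early, unmineralized matrix and of the marrow space. HIF-1α and HIF-2α are the oxygen-regulated subunits of the hypoxia-inducible factors, which bind a short DNA core in the genes they act on, and the comparisons asked what raised HIF transcripts did to these genes in cells kept at normal oxygen.

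RefSeq promoter windows (build GRCm38.p6, from 250 bases before to 50 after each gene's start) were found for 7 of the 9 genes, and 4 are printed because the levels of Cemip, Tnfaip6 and Vcan moved most among them and because Cd44 held the HIF core. Has2 and Has3 were not matched. The windows are chr7:84086456-84086755 on the minus strand for Cemip, chr2:52037863-52038162 on the plus strand for Tnfaip6, chr13:89742463-89742762 on the minus strand for Vcan and chr2:102901616-102901915 on the minus strand for Cd44. Capitals mark the motifs searched on both strands: the HIF core ACGTG or GCGTG, the AP-1 site TGANTCA and the TATA box TATAAA.
Cemip: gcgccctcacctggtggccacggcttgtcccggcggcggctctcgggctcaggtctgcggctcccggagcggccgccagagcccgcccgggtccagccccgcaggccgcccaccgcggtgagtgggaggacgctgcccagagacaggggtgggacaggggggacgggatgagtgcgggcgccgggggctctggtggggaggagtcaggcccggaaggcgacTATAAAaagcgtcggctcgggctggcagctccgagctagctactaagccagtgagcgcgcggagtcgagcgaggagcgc
Tnfaip6: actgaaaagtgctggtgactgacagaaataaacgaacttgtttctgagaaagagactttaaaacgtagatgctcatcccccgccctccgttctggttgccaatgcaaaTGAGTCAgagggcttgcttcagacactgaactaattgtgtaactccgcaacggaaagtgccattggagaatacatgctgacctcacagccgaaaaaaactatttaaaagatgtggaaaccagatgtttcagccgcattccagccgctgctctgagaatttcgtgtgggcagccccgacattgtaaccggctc
Vcan: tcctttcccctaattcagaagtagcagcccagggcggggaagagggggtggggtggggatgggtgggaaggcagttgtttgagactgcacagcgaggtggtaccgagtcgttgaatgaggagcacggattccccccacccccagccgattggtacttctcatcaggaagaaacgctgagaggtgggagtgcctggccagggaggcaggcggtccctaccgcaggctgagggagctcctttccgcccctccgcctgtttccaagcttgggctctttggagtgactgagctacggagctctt
Cd44: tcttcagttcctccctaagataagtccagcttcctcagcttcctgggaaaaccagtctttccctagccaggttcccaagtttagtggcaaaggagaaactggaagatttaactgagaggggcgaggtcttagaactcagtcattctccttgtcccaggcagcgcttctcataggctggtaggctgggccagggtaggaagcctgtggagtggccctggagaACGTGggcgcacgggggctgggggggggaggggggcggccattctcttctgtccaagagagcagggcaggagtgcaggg

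The HIF core was present in the Cd44 window, starting 29 bases before the gene start, and in the Hyal2 window, starting 42 bases after it, and in none of the windows of Cemip, Tnfaip6, Vcan, Hyal1 or Has1. Of 32851 RefSeq mouse promoter windows of this length, 43.8% held it. The AP-1 site was found in Tnfaip6 alone among the 7, starting 142 bases before the gene start, against 7.81% of all windows, and the TATA box in Cemip alone, starting 29 bases before the gene start, against 13.6%. These are matches of letters and not measured binding sites.

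The libraries held 14372589 to 18623403 counts. In CPM (counts per 1000000 counts of the library after TMM scaling), Hif1a was 186 to 193 in the controls, 1240, 1930 and 2325 in the Ad-Hif1a libraries and 447 to 585 in the Ad-Hif2a libraries. Epas1 was 41.9 to 48.8 CPM in the controls, 407 to 679 in the Ad-Hif1a libraries and 1996, 2181 and 823 in the Ad-Hif2a libraries. Both transcripts rose with both vectors (edgeR adjusted p from 0.000648 to 0.00846), each most with its own. Ad-Hif1a replicate 1 and Ad-Hif2a replicate 3 stood apart: each had its group's lowest vector transcript, 2.84% and 2.71% of counts from 13 mitochondrial genes against 3.56% to 6.17% in the others, and Ad-Hif2a replicate 3 had the lowest mean correlation with its own group (r = 0.940). All 10 osteoblast markers were detected (summed level, mostly Col1a1 and Col1a2, 57860 to 63305 CPM with Ad-C, 50666 to 54000 with Ad-Hif1a, 45163 to 52264 with Ad-Hif2a), and 3 fell with Ad-Hif1a and 5 with Ad-Hif2a (median log2 fold change of the 10, -1.01 and -1.08). Over all genes tested, 5.22% fell with Ad-Hif1a and 7.72% with Ad-Hif2a. Of the 10, Ibsp (0.52 and 0.73) and Spp1 (0.37 and 0.61) had positive log2 fold changes and the rest negative ones. All 13 macrophage markers were detected too, summing, mostly through Lyz2, to 3456 to 3721 CPM in the controls, 1502 to 1640 under Ad-Hif1a and 1521 to 1796 under Ad-Hif2a, and 8 of the 13 fell in each vector group. Of those that did not fall, Aif1 had log2 fold changes of 0.29 and 0.77 and Adgre1 of -0.21 and -0.02. Summed endothelial markers (8 genes, 4 tested) were 9.92 to 11.3 CPM with Ad-C and 11.9 to 16.4 with the vectors, mostly Erg there. Erg rose with both vectors, and Pecam1 rose and Kdr fell with Ad-Hif2a. Summed neutrophil markers (6 genes, S100a9 at 0) were 0.0552 to 0.321 CPM with Ad-C and 1.12 to 3.83 with the vectors, mostly S100a8 there. S100a8, the only member tested, rose with both. It had 1 count in total with Ad-C and passed the filter on low counts only through the vector libraries. Ly6g, Elane, Mpo and Cxcr2 had group means of at most 0.146 CPM. Skeletal muscle markers (7 genes, Myf5 and Myod1 at 0) summed to 56.6 to 67.9 CPM with Ad-C, mostly Myh1, and 6.02 to 12.8 with the vectors; Myh1 and Des fell and Acta1 rose with both vectors. The part of these other cell types and of the libraries in the results below was not tested.

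Against Ad-C, 1 of the 7 tested genes rose with Ad-Hif1a (Has2) and none fell, where 6.04% of the 14413 genes tested rose and 5.22% fell. With Ad-Hif2a, 2 rose (Has2, Tnfaip6) and 1 fell (Cemip), where 7.87% of all genes rose and 7.72% fell. A gene was called at an adjusted p under 0.05 in edgeR's quasi-likelihood test, with Benjamini-Hochberg adjustment over all genes tested. The median log2 fold change of the 7 was -0.06 with Ad-Hif1a and 0.46 with Ad-Hif2a, beside 0.01 and 0.01 over all genes. The same 3 control libraries stand in both comparisons, so their values are not independent of each other. Without Ad-Hif1a replicate 1 and Ad-Hif2a replicate 3, 3 of the 7 rose (Has2, Tnfaip6, Vcan) and Cemip fell with Ad-Hif1a, and 4 rose (Has2, Hyal1, Tnfaip6, Vcan) and Cemip fell with Ad-Hif2a. Of the 14559 genes in that fit, 14.2% rose and 13.4% fell under Ad-Hif1a, and 14.4% rose and 14.3% fell under Ad-Hif2a. For Has2, Tnfaip6 and Vcan the libraries left out were those of their groups nearest to the Ad-C mean. The added rises of Tnfaip6 and Vcan are therefore not separate support for a rise.

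**Figure D1:**
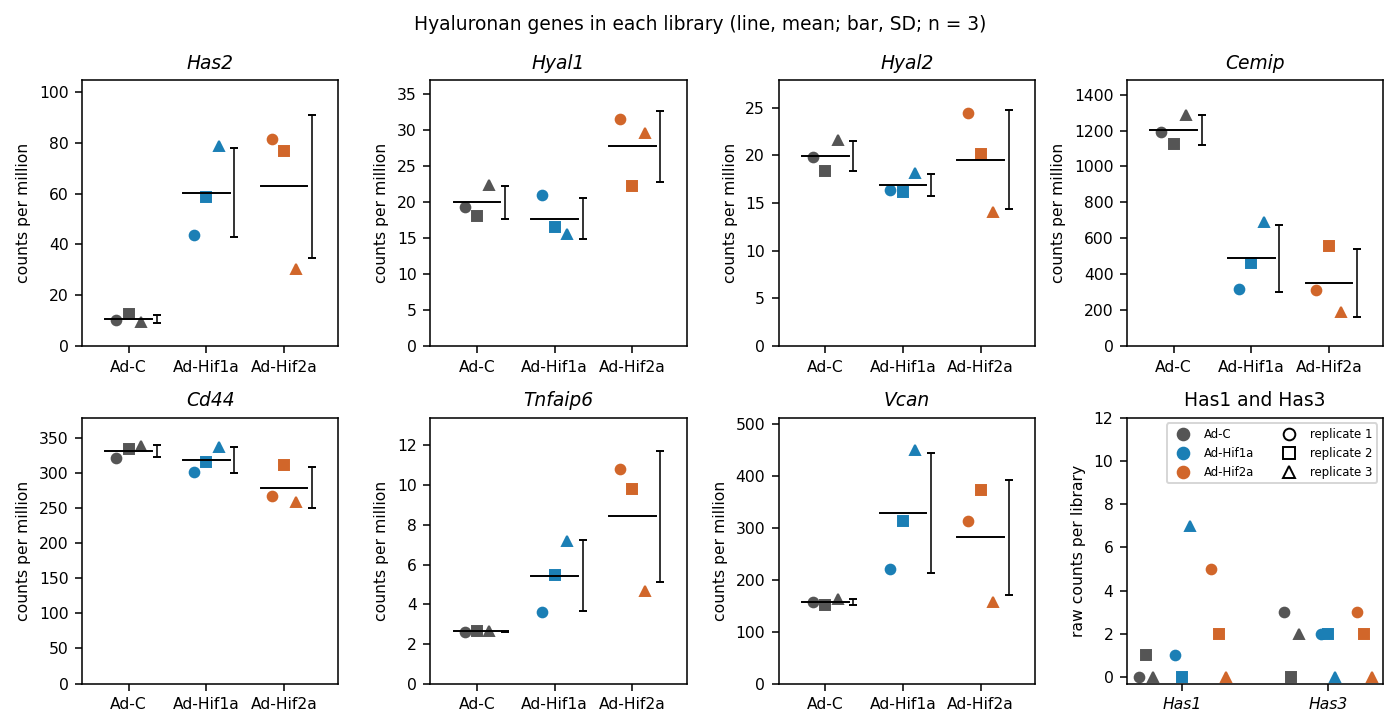
Level of each hyaluronan gene in the 9 libraries. The vertical axes give TMM-scaled CPM for the 7 tested genes and raw counts for Has1 and Has3; points are libraries, horizontal lines group means and bars SD (n = 3). Has2 was above 30 CPM in all 6 libraries with a HIF vector and at most 12.6 CPM with Ad-C, and Cemip was at most 689 CPM with a vector and at least 1123 CPM with Ad-C.

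Has2, the synthase that makes most hyaluronan in mesenchymal cells, was the only synthase with enough counts to test. It was 10.3, 12.6 and 9.46 CPM in Ad-C replicates 1 to 3, 43.6, 58.7 and 78.7 CPM in the Ad-Hif1a libraries, and 81.4, 76.5 and 30.4 CPM in the Ad-Hif2a libraries. Every vector library lay above every Ad-C library, the lowest being Ad-Hif2a replicate 3. The group means were 10.8 ± 1.64, 60.4 ± 17.6 and 62.8 ± 28.1 CPM (SD, n = 3). Has2 rose with both vectors, by 2.52 ± 0.41 on the log2 scale (SE; 5.73-fold, adjusted p = 0.0092 in edgeR) with Ad-Hif1a and by 2.52 ± 0.41 (5.72-fold, adjusted p = 0.00764) with Ad-Hif2a. In bulk RNA, fewer cells of a type and less RNA per cell cannot be told apart, and the same holds for more.

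The calls for Has2 changed with the control libraries kept. Without Ad-C replicate 1, 2 or 3 the edgeR adjusted p with Ad-Hif1a was 0.0700, 0.0521 and 0.0755. With Ad-Hif2a it was 0.0637 and 0.0539 without replicate 1 or 3, and 0.0427, still called, without replicate 2. Over all genes, leaving out Ad-C replicate 1, 2 or 3 lowered the Ad-Hif1a calls from 1624 to 441, 635 and 487. The Ad-Hif2a calls went from 2247 to 688, 1014 and 769. Over all 18 alternatives the log2 fold change of Has2 stayed between 1.95 and 2.82 with Ad-Hif1a and between 2.11 and 2.96 with Ad-Hif2a. The antisense RNA Has2os overlaps Has2, and whether counting used strand is not given in the sources used here. Has2os had 1 to 4 counts in each library, against 177 to 1380 for Has2.

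Has1 and Has3, the other synthases, were at or near the floor. Has1 had 0, 1 and 0 counts with Ad-C, 1, 0 and 7 with Ad-Hif1a, and 5, 2 and 0 with Ad-Hif2a. Has3 had 3, 0 and 2 counts with Ad-C, 2, 2 and 0 with Ad-Hif1a, and 3, 2 and 0 with Ad-Hif2a. A count of 0 allows up to 3 counts, or 0.160 to 0.218 CPM depending on the library, by counting error only, so only a large difference in either gene could have been detected at this depth. Has1 overlaps Spaca6, which had 190 to 501 counts per library, so its few counts are uncertain.

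Cemip, a hyaluronan-binding protein needed for the depolymerization of hyaluronan by human skin fibroblasts, had the most counts of the 9 in every Ad-C library. It was 1194, 1123 and 1289 CPM with Ad-C, 319, 463 and 689 CPM with Ad-Hif1a, and 310, 560 and 191 CPM with Ad-Hif2a. No vector library reached the lowest Ad-C library. The means were 1202 ± 83.4, 490 ± 186 and 354 ± 189 CPM (SD, n = 3). Cemip fell by 1.82 ± 0.42 on the log2 scale with Ad-Hif2a (SE; 3.52-fold lower, edgeR adjusted p = 0.0274). With Ad-Hif1a the log2 fold change was -1.33 ± 0.41 (95% confidence interval -2.28 to -0.37) and the edgeR adjusted p, 0.0859, missed the threshold.

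The direction of the Cemip values was negative against Ad-C under all 18 alternatives with either vector, but the call was not steady. With Ad-Hif2a the edgeR adjusted p was 0.153, 0.0602 and 0.114 without Ad-C replicate 1, 2 or 3 and 0.0960 without Ad-Hif2a replicate 1. With Ad-Hif1a the adjusted p ranged over the alternatives from 0.00029, without Ad-Hif2a replicate 3, to 0.344, and was 0.0447 with no replicate block and 0.00763 in DESeq2, which kept the block. Without Ad-Hif2a replicate 3, 18.3% of 14648 genes fell with Ad-Hif1a, against 5.22% with all 9 libraries.

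Hyal1 and Hyal2, the enzymes that cut hyaluronan in lysosomes and at the cell surface, passed the test in no comparison. Hyal1 was 19.3, 18.1 and 22.4 CPM with Ad-C, 20.9, 16.6 and 15.6 CPM with Ad-Hif1a, and 31.5, 22.2 and 29.5 CPM with Ad-Hif2a, and of the Ad-Hif2a libraries only replicate 2 lay within the Ad-C range, the others above it. Its log2 fold change was -0.18 ± 0.18 (SE) with Ad-Hif1a and 0.46 ± 0.18 with Ad-Hif2a, with edgeR adjusted p of 0.553 and 0.117. Hyal1 overlaps Naa80 and Hyal3, which had 224 to 444 and 3 to 13 counts per library beside 251 to 534 for Hyal1, so its counts are uncertain. Hyal2 was 19.8, 18.4 and 21.6 CPM with Ad-C, 16.4, 16.2 and 18.2 CPM with Ad-Hif1a, and 24.5, 20.2 and 14.1 CPM with Ad-Hif2a. The Ad-Hif1a libraries lay just below all Ad-C libraries, and the Ad-Hif2a libraries lay on both sides. The log2 fold changes of Hyal2 were -0.24 ± 0.22 and -0.04 ± 0.22 (SE; 95% confidence intervals -0.75 to 0.28 and -0.55 to 0.48).

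Cd44, the main cell surface receptor for hyaluronan, passed the test in no comparison. It was 321, 333 and 338 CPM with Ad-C, 301, 316 and 337 CPM with Ad-Hif1a, and 266, 312 and 258 CPM with Ad-Hif2a. The Ad-Hif1a range overlapped that of Ad-C, and the Ad-Hif2a libraries were all below the lowest Ad-C library. The log2 fold change of Cd44 was -0.06 ± 0.14 (SE; 95% confidence interval -0.39 to 0.28) under Ad-Hif1a, and under Ad-Hif2a it was -0.25 ± 0.14 (-0.58 to 0.09; edgeR adjusted p = 0.820 and 0.250).

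Tnfaip6 encodes TSG-6, a secreted protein that moves heavy chains of inter-α-inhibitor onto hyaluronan and so crosslinks it. It was 2.60, 2.64 and 2.67 CPM with Ad-C, 3.63, 5.47 and 7.21 CPM with Ad-Hif1a, and 10.8, 9.83 and 4.66 CPM with Ad-Hif2a. All 6 vector libraries were above the Ad-C libraries, which had 47, 47 and 50 counts. Tnfaip6 rose by 1.67 ± 0.40 on the log2 scale with Ad-Hif2a (SE; 3.18-fold, edgeR adjusted p = 0.0310). With Ad-Hif1a its log2 fold change was 1.04 ± 0.40 (95% confidence interval 0.12 to 1.97, adjusted p = 0.150). Leaving out 1 library ended the Ad-Hif2a call in 6 of 9 cases, with adjusted p from 0.0642 (without Ad-Hif1a replicate 2) to 0.158 (without Ad-C replicate 1), the other cases being without Ad-C replicates 2 and 3 and Ad-Hif2a replicates 1 and 2. Without Ad-Hif2a replicate 3 the Ad-Hif1a value, 1.01, had an adjusted p of 0.00614. In that fit 18.1% of 14648 genes rose with Ad-Hif1a, against 6.04% with all 9 libraries.

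Vcan encodes versican, a large proteoglycan whose link domain binds hyaluronan in loose matrix. It was 157, 151 and 163 CPM with Ad-C, 220, 313 and 450 CPM with Ad-Hif1a, and 313, 373 and 158 CPM with Ad-Hif2a. The Ad-Hif1a libraries were all above Ad-C, and of the Ad-Hif2a libraries replicate 3 lay within the Ad-C range. The log2 fold change was 1.05 ± 0.37 (SE; 95% confidence interval 0.19 to 1.92, edgeR adjusted p = 0.124) with Ad-Hif1a and 0.83 ± 0.37 (-0.04 to 1.69, adjusted p = 0.160) with Ad-Hif2a. Without Ad-Hif2a replicate 3 both passed, at 1.00 (adjusted p = 0.000805) and 1.25 (adjusted p = 0.000477). The library left out was the one within the Ad-C range, so the second pass is not separate support for a rise with Ad-Hif2a. In that fit 18.1% and 11.1% of 14648 genes rose, against 6.04% and 7.87% with all 9 libraries.

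**Figure D2:**
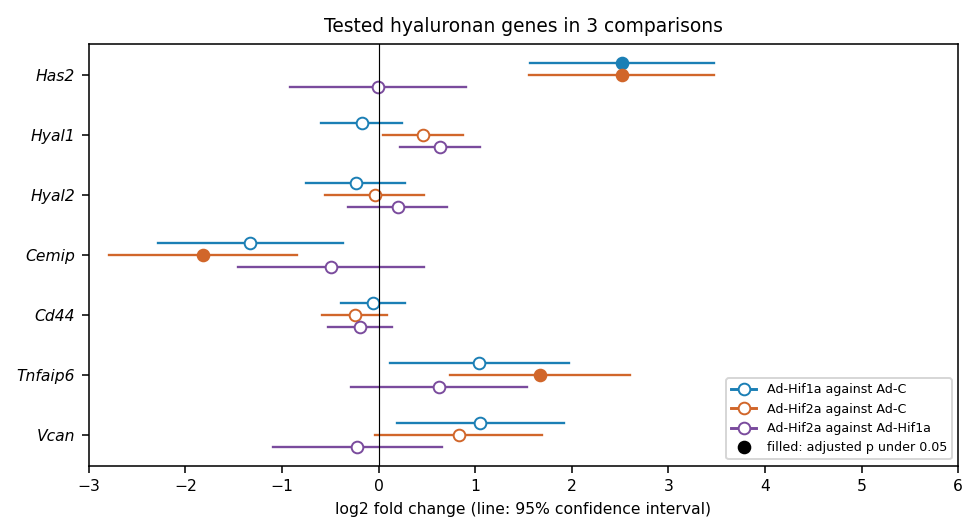
Log2 fold change of the 7 tested genes in 3 comparisons. The horizontal axis is the log2 fold change from edgeR, lines are 95% confidence intervals, and filled points have an adjusted p under 0.05. Has2 is filled against Ad-C with both vectors at 2.52, Tnfaip6 and Cemip are filled with Ad-Hif2a only, and no point is filled between the vectors.

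Between the vectors none of the 7 genes was called, where the share called in either direction over all genes was 0. Hif1a and Epas1, the genes the vectors carried, were not called either. With Ad-Hif2a against Ad-Hif1a they differed by -1.75 ± 0.25 (edgeR adjusted p = 0.823) and 1.64 ± 0.40 on the log2 scale (SE). The absence of calls here therefore does not show that the vectors acted alike. In edgeR, 338 of the 14413 genes and 1 of the 7 had an unadjusted p under 0.05, and DESeq2 called 19 genes and none of the 7. The 338 are a smaller share of all genes than the 0.05 that this threshold passes where no gene differs. The 1 was Hyal1, higher with Ad-Hif2a by 0.64 ± 0.18 on the log2 scale (SE; unadjusted p = 0.00797, adjusted p = 1.00 in edgeR), with every Ad-Hif2a library above every Ad-Hif1a library. For Has2 the difference was -0.0036 ± 0.39 on the log2 scale, with a 95% confidence interval from -0.91 to 0.91. The corresponding intervals were -1.46 to 0.47 for Cemip, -0.28 to 1.53 for Tnfaip6 and -1.10 to 0.65 for Vcan, so that Tnfaip6 and Cemip, called with 1 vector and not with the other, were not shown to differ between them.

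Within each vector group several genes had their lowest level in the same library. Their highest Ad-Hif2a level was in replicate 1 for Has2 and Tnfaip6 and in replicate 2 for Cemip, Cd44 and Vcan. Has2, Cemip, Cd44, Tnfaip6 and Vcan had their lowest Ad-Hif1a level in replicate 1 and their lowest Ad-Hif2a level in replicate 3, the libraries with the least vector transcript, and Hyal1 and Hyal2 did not. That is 5 of the 7 tested genes, beside 32.6% of the 14413 genes tested. For Has2, Tnfaip6 and Vcan the library with the least vector transcript was the one nearest to the Ad-C mean, at 4.05, 1.38 and 1.40 times it with Ad-Hif1a and 2.82, 1.77 and 1.00 times it with Ad-Hif2a. For Cemip it was the one farthest from the Ad-C mean, at 0.266 and 0.159 times it. With 3 libraries per group no relation to the HIF transcript was tested, and mitochondrial share differed between the same libraries.

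**Figure D3:**
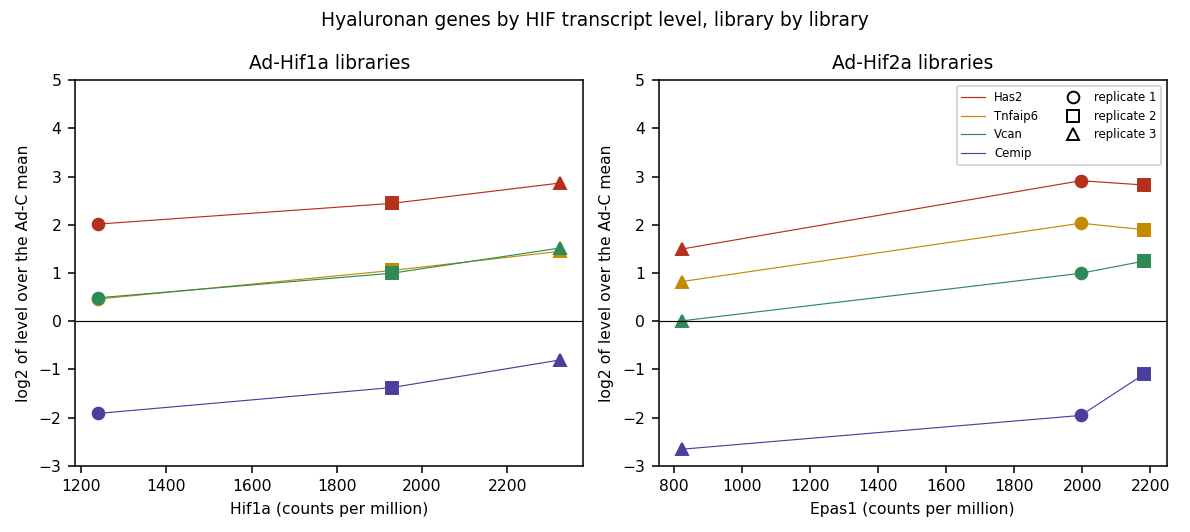
Level of Has2, Tnfaip6, Vcan and Cemip by the vector's own HIF transcript. The horizontal axis is Hif1a (left) or Epas1 (right) in CPM, the vertical axis the log2 of the level over the Ad-C mean, and each point is 1 library. In both panels the library with the least HIF transcript has the lowest value of all 4 genes, which brings Has2, Tnfaip6 and Vcan toward the line at 0 and takes Cemip away from it.

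Cemip and Has2 went in opposite directions against Ad-C but shared their lowest library within each vector group. Their counts were therefore set against each other inside each library, where no scaling enters. This ratio was chosen after the values were seen and is given without a test. There were 116, 89.0 and 136 Cemip counts per Has2 count with Ad-C, 7.32, 7.88 and 8.75 with Ad-Hif1a, and 3.81, 7.32 and 6.26 with Ad-Hif2a. Ad-Hif1a replicate 1 was the lowest of its group on this measure and Ad-Hif2a replicate 3 the middle of its own, and the ratio was 14.1-fold lower with Ad-Hif1a and 20.1-fold lower with Ad-Hif2a than with Ad-C (from means of log2 ratios). For Vcan the ratio to Has2 was 15.3, 11.9 and 17.3 with Ad-C, 5.05, 5.34 and 5.72 with Ad-Hif1a, and 3.85, 4.87 and 5.19 with Ad-Hif2a.

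**Figure D4:**
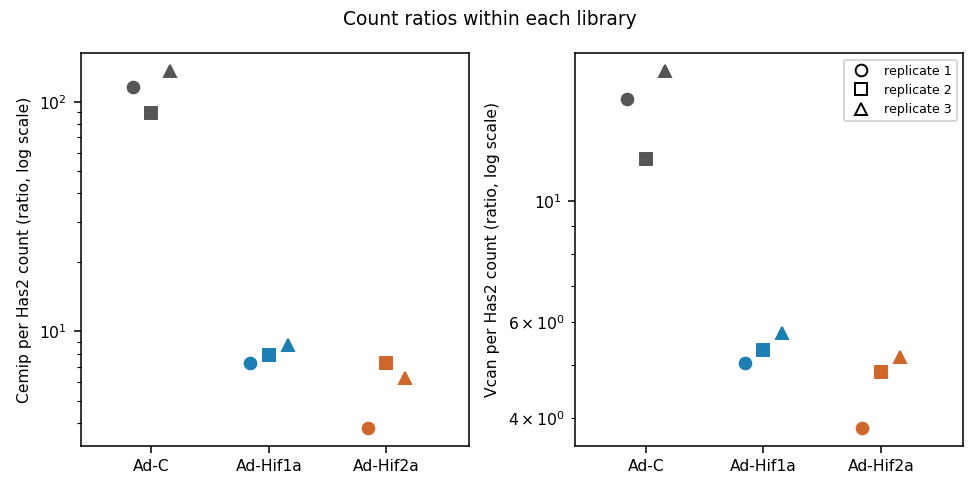
Cemip counts (left) and Vcan counts (right) per Has2 count in each library, on log axes. Points are libraries. All 6 vector libraries lie below the Ad-C libraries in both panels, with 3.81 to 8.75 Cemip counts per Has2 count against 89.0 to 136.

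Levels were compared between genes per kilobase of the longest annotated protein-coding transcript (GENCODE vM21), since longer transcripts give more counts. In CPM per kilobase the order with Ad-C was Cemip (mean 169), Cd44 (58.9), Vcan (12.6), Hyal2 (6.72), Hyal1 (6.61), Has2 (2.54) and Tnfaip6 (1.54), with Has3 and Has1 at 0.0154 and 0.00892. Only Hyal2 and Hyal1 overlapped among the first 7, at 6.20 to 7.28 and 5.99 to 7.43 CPM per kilobase. With the vectors the top of the order closed up: Cemip was 44.9 to 96.9 CPM per kilobase and Cd44 53.6 to 60.1 with Ad-Hif1a, and 26.8 to 78.8 and 46.0 to 55.5 with Ad-Hif2a, so the 2 genes overlapped. Has2 was 10.3 to 18.6 CPM per kilobase with Ad-Hif1a, above Hyal1 (5.17 to 6.94) and Hyal2 (5.45 to 6.13), and with Ad-Hif2a, at 7.19 to 19.2, it overlapped both.

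Genes with the most similar profile over the 9 libraries were sought among those with a mean log2 CPM above 4, by the root mean square difference of centred log2 CPM values. The nearest were Kcnj15 (0.20) and Fndc1 (0.26) for Has2, Pappa2 (0.11) and Map4k3 (0.12) for Cemip, Medag (0.15) and Ereg (0.17) for Tnfaip6, and Fgf7 (0.12) and Resf1 (0.13) for Vcan. For Hyal1 they were Bpgm (0.13) and Fxyd5 (0.14), for Hyal2 Hibadh (0.09) and 4833439L19Rik (0.09), and for Cd44 Foxj3 (0.05) and Mapk1ip1l (0.05). Among the 7 genes themselves the closest pair was Hyal2 and Cd44 (0.24) and the farthest Has2 and Cemip (1.94). The measure is not scaled by the spread of a gene, so genes that change little, as Hyal2 and Cd44 did, lie close together.

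The other genes of hyaluronan metabolism were taken from a list of 50, of which 34 were tested. With Ad-Hif1a, 4 of these rose and 4 fell, with Ad-Hif2a 5 rose and 4 fell, and the median log2 fold change was -0.02 and -0.04. Over all 14413 genes the shares risen and fallen were 6.04% and 5.22% under Ad-Hif1a and 7.87% and 7.72% under Ad-Hif2a, and both medians were 0.01. Hyal4, Hyal5, Hyal6, Spam1 and Ncan had no count in any library.

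Of 10 genes that make the precursor sugars, Gfpt2 alone rose. It encodes an isoform of the rate-limiting enzyme of the hexosamine pathway, which leads to UDP-N-acetylglucosamine. Gfpt2 was 32.3, 30.8 and 32.4 CPM with Ad-C, 114, 104 and 91.0 CPM with Ad-Hif1a, and 98.8, 108 and 101 CPM with Ad-Hif2a. The vector libraries formed a narrow band above Ad-C, and Gfpt2 rose by 1.69 ± 0.15 on the log2 scale with either vector (SE; edgeR adjusted p = 0.00078 and 0.000574), a call kept in all 18 alternatives. The other 9 genes (Ugdh, Ugp2, Gfpt1, Gnpnat1, Pgm3, Uap1, Uap1l1, Pgm1 and Nagk) lay between -0.24 and 0.75 (log2 fold change) under Ad-Hif1a and between -0.29 and 0.49 under Ad-Hif2a.

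Of the lysosomal enzymes that trim hyaluronan fragments, Gusb, β-glucuronidase, was 155 to 163 CPM in the controls, 100 to 114 CPM under Ad-Hif1a and 110 to 122 CPM under Ad-Hif2a. Gusb fell by 0.55 ± 0.14 on the log2 scale with Ad-Hif1a (SE; edgeR adjusted p = 0.0442), a call lost in 10 of 18 alternatives, and had a value of -0.45 with Ad-Hif2a. Hexa and Cemip2, a membrane relative of Cemip, passed in neither comparison.

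Of 7 other receptors tested, the scavenger receptor Stab1, found on macrophages and sinusoidal endothelium, was 194, 212 and 208 CPM with Ad-C, 48.9, 52.2 and 47.6 CPM with Ad-Hif1a, and 25.8, 56.9 and 47.1 CPM with Ad-Hif2a. It fell by 2.04 ± 0.24 and 2.29 ± 0.24 on the log2 scale (SE; edgeR adjusted p = 0.00253 and 0.00136), beside the summed macrophage markers given above, which were lower in the same libraries; their part in it was not tested. Its relative Stab2 fell by 1.65 ± 0.45 with Ad-Hif2a (adjusted p = 0.0468), on 4 to 26 counts per library. Susd5, a membrane protein with a link domain, fell by 2.60 ± 0.60 and 2.18 ± 0.58 (adjusted p = 0.0350 and 0.0440), on 1 to 40 counts per library. Tlr2, a receptor of innate immunity that can respond to hyaluronan fragments, was 22.0 to 28.0 CPM with Ad-C and 42.8 to 69.9 with the vectors, and rose by 1.06 ± 0.22 and 1.23 ± 0.22 (adjusted p = 0.0234 and 0.0105). With Ad-Hif2a the calls of Stab2, Susd5 and Tlr2 were lost in 9 of 17, 6 of 17 and 4 of 18 alternatives, and with Ad-Hif1a those of Susd5 and Tlr2 in 6 of 17 and 4 of 18. Hmmr (log2 fold changes -0.83 and -0.97), Layn (0.60 and 0.64) and Tlr4 (-0.44 and -0.51) were called with neither vector. Stab2 was not called with Ad-Hif1a (-1.38).

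Among the heavy chains and stabilizers of hyaluronan matrix, Ptx3, a pentraxin that works with TSG-6 in the cumulus matrix of the mouse ovary, was 84.1, 84.1 and 87.8 CPM with Ad-C, 209, 201 and 213 CPM with Ad-Hif1a, and 242, 230 and 207 CPM with Ad-Hif2a. It rose by 1.28 ± 0.14 and 1.41 ± 0.14 on the log2 scale (SE; edgeR adjusted p = 0.0018 and 0.000995), in all 18 alternatives. Hapln4, a link protein known from brain matrix, had 3, 4 and 11 counts with Ad-C, 125, 105 and 99 with Ad-Hif1a, and 112, 112 and 64 with Ad-Hif2a. No vector library overlapped Ad-C, and Hapln4 rose by 4.27 ± 0.43 and 4.14 ± 0.44 (adjusted p = 0.00144 and 0.00136). Hapln4 passed the filter on low counts only through the vector libraries, where it was high. With so few Ad-C counts the size of its rise is uncertain. Itih2, Itih5, Hapln1 and Hapln3 were not called, with log2 fold changes between -0.64 and 0.58 under Ad-Hif1a and between -0.64 and 0.47 under Ad-Hif2a.

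Of the remaining binding proteins, C1qbp, a mostly mitochondrial protein that also binds hyaluronan, was 52.3 to 56.2 CPM with Ad-C and 75.9 to 91.0 CPM with Ad-Hif2a. It rose by 0.61 ± 0.14 on the log2 scale with Ad-Hif2a (SE; edgeR adjusted p = 0.0240), a call lost in 7 of 18 alternatives, and had a value of 0.43 with Ad-Hif1a. Acan, Habp4 and Impg2 were not called, with log2 fold changes of -1.23 to -0.10 under Ad-Hif1a and -1.68 to -0.32 under Ad-Hif2a. Ezr, Rdx and Msn, which link Cd44 to actin, were not called, their log2 fold changes lying between -0.22 and 0.26 under Ad-Hif1a and between -0.37 and 0.24 under Ad-Hif2a. Between the vectors none of the 34 genes was called.

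**Figure D5:**
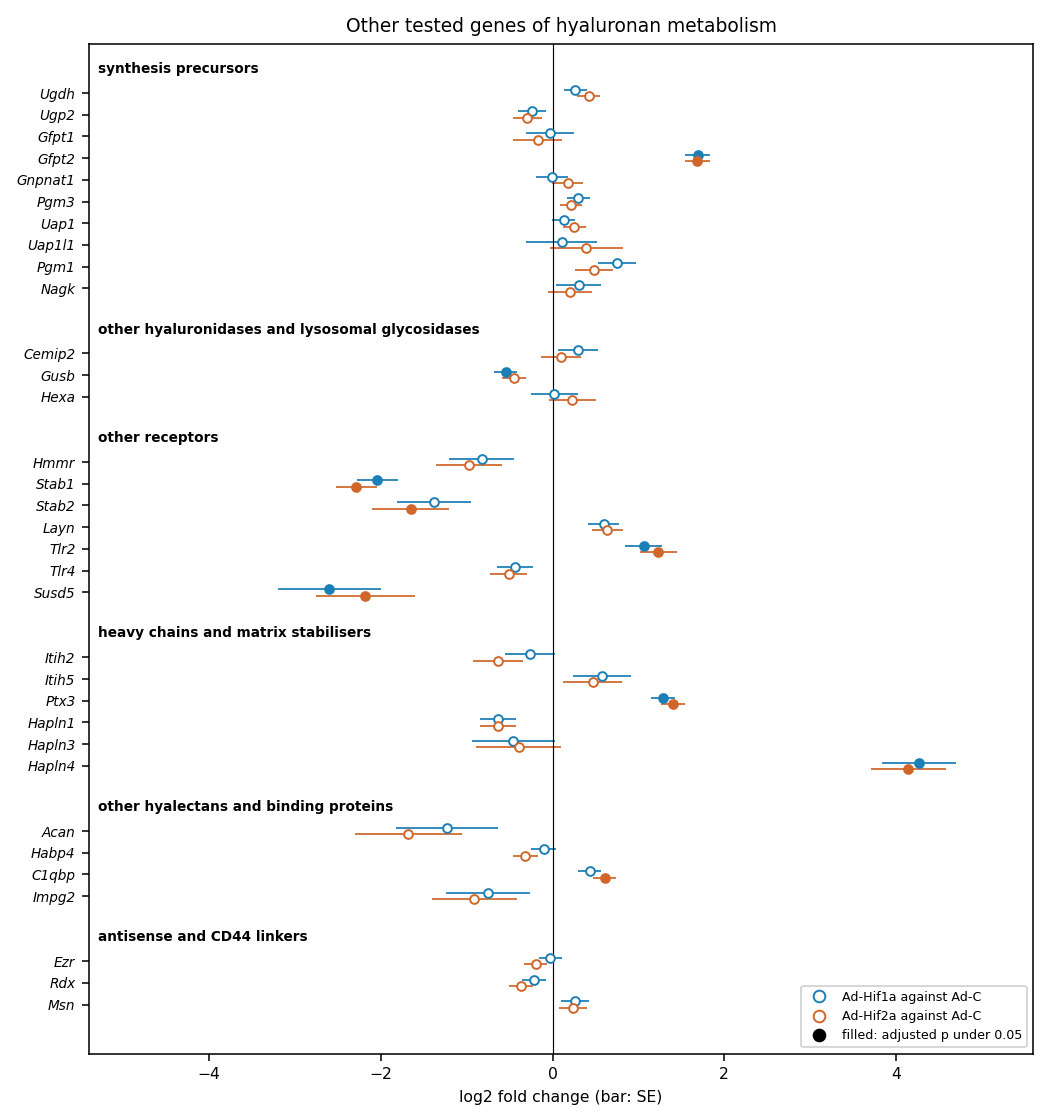
Log2 fold change of 33 of the 34 other tested genes of hyaluronan metabolism by role. The horizontal axis is the log2 fold change against Ad-C, bars are SE, and filled points have an adjusted p under 0.05. Gfpt2, Tlr2, Ptx3 and Hapln4 are filled to the right of 0 with both vectors, and Stab1 and Susd5 to the left.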

How the data were processed

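Total RNA from 9 libraries (CORALL RNA-seq V2 kit) was measured. The authors deposited 1 table of whole-number counts per gene symbol and library; the submitters' processing notes list Salmon, STAR, fastp and bcl2fastq 2.20.0.422, with GRCm39 as build. How the counts were made whole, the annotation and the strand setting are not given in the sources used here. Of 40213 symbols, 14413 passed edgeR's filterByExpr. edgeR 4.0.16 (R 4.3.3; TMM, factors 0.957 to 1.03; robust quasi-likelihood) was fitted to all 9 libraries with group and replicate number, as the study used a paired test, and tested on simulated data. Confidence intervals are at 95%. DESeq2 1.42.0, other scalings, filters and left-out libraries were alternatives. Levels are TMM-scaled CPM; log2 CPM had a prior count of 2. Intervals for counts of 0 cover counting error only. Named genes were the 9 members, Hif1a and Epas1, up to 4 called genes per pathway role by adjusted p, and the 2 nearest profiles per member. The members, lists and tests were chosen with earlier results of these data known. RefSeq and GENCODE references used GRCm38, so no coordinates were joined to the counts. The count ratios and the comparison with the HIF transcript were added after the values were seen. A result of the wider gene list is not reported here.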

Additional observations from a re-analysis of the deposited data

How the results depend on the processing

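Among the tested hyaluronan genes and the 34 other pathway genes, no called direction reversed in any alternative run, and the alternative scalings changed no call among the 7 tested hyaluronan genes. The number of genes called with Ad-Hif1a (1624) was 2470 with DESeq2, 4706 with only the 6 libraries compared, 4022 without both libraries that stood apart and 441 to 5330 leaving out 1 library. With Ad-Hif2a (2247) it was 3526 with DESeq2, 1705 with only the 6 libraries compared, 4173 without both libraries and 688 to 3309 leaving out 1. Between the vectors (0) it was 2 without a filter on low counts, 19 in DESeq2, 11 without both libraries and 0 to 12 leaving out 1. Of the hyaluronan genes, the number risen with Ad-Hif1a (1) was 2 with DESeq2, 3 with only the 6 libraries, 3 without both libraries and 0 to 3 leaving out 1, and with Ad-Hif2a (2) it was 4 without both libraries and 0 to 3 leaving out 1. The number fallen with Ad-Hif1a (0) was 1, Cemip, with DESeq2, with only the 6 libraries and without both libraries, and 0 to 1 leaving out 1; with Ad-Hif2a (1) it was 0 to 1. Leaving out Ad-Hif2a replicate 3 gave the most genes called in each comparison, and leaving out Ad-C replicate 1 the fewest against Ad-C. The cause was not tested.

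The labels do not say whether libraries with the same replicate number share a culture. Deviations of same-numbered libraries correlated between -0.57 and 0.098, and not every library correlated best with its own number. The highest correlation, 0.61, was between Ad-Hif2a replicate 3 and Ad-Hif1a replicate 1, the libraries that stood apart. These values therefore cannot settle the pairing. With no replicate block, 2379 genes were called with Ad-Hif1a, 3452 with Ad-Hif2a and 2 between the vectors; of the hyaluronan genes 1 fell with Ad-Hif1a, Cemip at -1.29 (edgeR adjusted p = 0.0447), and no other call among the hyaluronan genes changed.

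Depth limits Has1, Has3, Susd5 and Stab2, which rest on few counts per library. Susd5 and Stab2 passed the filter on low counts through the Ad-C libraries, and Hapln4, S100a8 and Pecam1 through the vector libraries. The sizes of their changes are therefore uncertain.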
